A study of Mus musculus with 6 samples.

Results

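Expression of 8 genes of the TGF-β and activin ligand system was followed in a mouse osteocytic cell line: the ligand genes Tgfb1, Tgfb2 and Tgfb3, the activin β subunit genes Inhba and Inhbb, the activin-binding protein gene Fst, and Ltbp1 and Thbs1, whose products hold latent TGF-β in the matrix and release it. These 8 were taken by gene symbol from the 39179 genes of the deposited expression table. RNA came from Ocy454 cells, an immortalised osteocyte-like line that was used here as 1 single-cell subclone, kept for 14 days at 37 °C before treatment. All groups used the same subclone and differed only in a 4 h exposure to vehicle, to PTH (the 1-34 peptide, 1 nM) or to YKL-05-093 (0.5 µM), a small-molecule inhibitor of salt-inducible kinases (SIKs). PTH signals through a Gs-coupled receptor, cAMP and protein kinase A, which in turn inhibits SIKs, so that the study set a hormone beside a kinase inhibitor. The study states that the inhibitor also acts on kinases other than SIKs in vitro. It also reports that some genes still responded to the inhibitor in cells depleted of the main SIKs of osteocytes. Whether SIKs or other kinases lie behind the differences seen with the inhibitor was not tested here. The sample labels give the vehicle as PBS with HCl, whereas the study's methods name DMSO as the solvent of compounds for cultured cells, so which solvent the vehicle libraries received is uncertain. Each condition had 2 libraries. The labels do not say whether these came from separate cultures, so the p-values given here measure only the spread between the libraries.

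TGF-β ligands are secreted as latent complexes: the propeptide stays wrapped around the ligand, and latent TGF-β binding proteins such as the product of Ltbp1 tether the complex to matrix until integrins, proteases or thrombospondin-1 (Thbs1) free the ligand. Bone matrix is a large store of latent TGF-β, which osteoclasts release during resorption and to which osteoblasts and osteocytes respond through SMAD2 and SMAD3. Activins are dimers of inhibin β chains, βA from Inhba and βB from Inhbb, and they use activin receptors but the same SMADs. Follistatin (Fst) wraps around activin and keeps it from its receptors.

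Promoter sequence is shown for the members that passed the test (limma, adjusted p under 0.05) in at least 1 comparison and have an entry in the RefSeq promoter table (GRCm38.p6), because 1 of them carries the core of a cAMP response element (CRE), the element that CREB binds, and the others do not. The table held 5 of the 8 genes, Tgfb1, Tgfb2, Inhba, Inhbb and Ltbp1, of which Tgfb2, Inhba and Inhbb met both conditions. Ltbp1 also carries the core but passed in no comparison, so its sequence is not printed. The 250 bases before the start of each gene are printed 5′ to 3′ on the strand of the gene, at chr1:186705990-186706239 (minus strand) for Tgfb2, chr13:16011601-16011850 (plus strand) for Inhba and chr1:119422249-119422498 (minus strand) for Inhbb. Capitals mark a CRE core (TGACG, or CGTCA on the other strand) or a SMAD box (GTCT, or AGAC on the other strand).
Tgfb2: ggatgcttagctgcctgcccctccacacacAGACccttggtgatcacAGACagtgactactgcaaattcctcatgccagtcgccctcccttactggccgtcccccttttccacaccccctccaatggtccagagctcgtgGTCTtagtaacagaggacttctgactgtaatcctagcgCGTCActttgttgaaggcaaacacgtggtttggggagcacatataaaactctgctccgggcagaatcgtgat
Inhba: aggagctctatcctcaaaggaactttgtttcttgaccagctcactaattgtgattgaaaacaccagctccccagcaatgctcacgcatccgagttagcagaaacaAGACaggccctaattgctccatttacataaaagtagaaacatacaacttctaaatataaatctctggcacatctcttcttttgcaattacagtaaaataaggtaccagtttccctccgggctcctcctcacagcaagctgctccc
Inhbb: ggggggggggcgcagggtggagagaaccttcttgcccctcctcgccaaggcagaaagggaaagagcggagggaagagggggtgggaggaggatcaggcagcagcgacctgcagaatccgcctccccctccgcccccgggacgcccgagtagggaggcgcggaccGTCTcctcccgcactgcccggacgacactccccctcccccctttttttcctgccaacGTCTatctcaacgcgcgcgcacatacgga
The CRE core of Tgfb2 lay 72 bases before the start, and no match to it was found in the windows of Inhba, Inhbb or Tgfb1. In Ltbp1 the window of the upstream of its start sites held 2 overlapping matches, 73 and 70 bases before the start, one on each strand. For reference, 17.8% of 32851 promoter windows of the same length held a CRE core and 82.9% held a SMAD box, and the SMAD box was present in all 5 genes. The AP-1 site TGANTCA, searched on both strands, matched none of the 5 genes and 6.75% of all windows. These matches are letters in a window and not sites of binding.

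The libraries held 17455383 to 27905898 reads assigned to genes, as recovered from the deposited RPKM (reads divided by gene length in kilobases and by library size). The treatments were visible in the genes used as a check: Vdr, the vitamin D receptor, was at 4.41 and 3.31 RPKM in vehicle, 59.6 and 56.9 with PTH and 54.7 and 54.9 with YKL-05-093, and Tnfsf11 (RANKL) was at 0.358 and 0.272 in vehicle, 12.6 and 10.6 with PTH and 3.09 and 2.57 with YKL-05-093. Of 12 osteocyte and osteoblast markers, 9 were expressed above the filter, with a summed level of 497 to 596 RPKM in vehicle, 710 to 800.3 with PTH and 575 to 667 with YKL-05-093. Among the defining late osteocyte markers, Sost reached at most 3 reads in any library, Fgf23 2 and Mepe 4, and Dmp1 had a mean of 0.899 RPKM in vehicle, whereas Phex (means of 1.29, 3.42 and 3.76 RPKM in vehicle, PTH and YKL-05-093) and the early osteocyte gene Pdpn (62.2, 166.7 and 94.4 RPKM) were expressed. The sum was mostly Col1a1, which passed nowhere. With PTH 3 of the 9 were called higher, Pdpn (log2 change 1.44, adjusted p = 0.0147), Bglap (1.58, 0.0283) and Bglap2 (1.49, 0.0279), and the osteoblast factor gene Sp7 was called lower (-1.97, 0.00189), while none was called with YKL-05-093. Markers of other cells were low: adipocyte and skeletal muscle lists stayed under 0.5 RPKM in sum, with Cdh5 and Myod1 at 0, and the blood cell list was at 3.83 to 4.51 RPKM, nearly all of it Cd68. The chondrocyte list, mainly Col2a1, was at 0.673 to 0.716 RPKM in vehicle, 1.79 to 1.95 with PTH and 0.905 to 0.993 with YKL-05-093, and the endothelial list, mainly Kdr, was at 0.724 to 1.14, 1.14 to 1.44 and 1.95 to 2.17 RPKM. Their part in the results below was not tested.

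The vehicle libraries stood apart from each other more than the treated pairs did. Between replicates, genes differed by a median of 0.333 on the log2 scale in vehicle, but by 0.108 with PTH and 0.103 with YKL-05-093. Among the 8 genes this touched Thbs1, Inhba, Ltbp1 and Tgfb2, which were higher in vehicle replicate 1 by 0.59, 0.54, 0.48 and 0.44 on the log2 scale, whereas Tgfb1, Tgfb3, Inhbb and Fst differed by 0.104 or less. Values without either vehicle library are therefore given with the results on those genes. Such a fit takes the spread from the narrower treated pair alone, which lowers p-values in general. Only the size of the difference is therefore given there, and a pass gained in that way is not taken as support.

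All 8 genes passed the filter on low values, and their levels spread over a wide range. In vehicle, on the RPKM scale, Thbs1 was highest (53.9 ± 15.4, SD, n = 2), followed by Fst (21.6 ± 0.846), Tgfb2 (15.3 ± 3.27), Tgfb3 (12.9 ± 0.663), Ltbp1 (8.54 ± 2.01), Inhba (5.86 ± 1.56), Tgfb1 (4.47 ± 0.0783) and Inhbb (4.09 ± 0.123). Tgfb2 and Tgfb3 could not be ordered, since their libraries overlapped. Thbs1 stood at the 91.7th percentile of the 14264 genes that passed the filter and Inhbb at the 37.3rd. With PTH the order changed: Tgfb3 (17.6 ± 0.692) and Tgfb2 (16.8 ± 0.559) had the highest means, Fst (15.8 ± 1.11) and Thbs1 (15.7 ± 0.937) followed, and Inhba (2.43 ± 0.0203) was lowest. With YKL-05-093 the first place went to Tgfb2 (25.5 ± 0.241), and Inhba (3.69 ± 0.378) was again lowest. In both treated conditions Fst and Thbs1 overlapped, and with PTH so did Tgfb2 with Tgfb3 and with Fst. The order between genes also rests on the lengths behind the deposited values, which were far shorter than the merged exons of the later GENCODE M21 annotation for Inhba (1975 against 6390 bases), Fst (2331 against 4589) and Tgfb1 (2551 against 5042). With the M21 lengths, mean vehicle levels would be 1.81 RPKM for Inhba, 10.9 for Fst and 2.26 for Tgfb1, which puts the mean of Fst below those of Tgfb3 (12.8) and Tgfb2 (12.5) and that of Inhba below that of Inhbb (4.09). The vehicle libraries of Fst and Tgfb2 would then overlap, so that Fst and Tgfb2 could not be ordered.

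**Figure D1:**
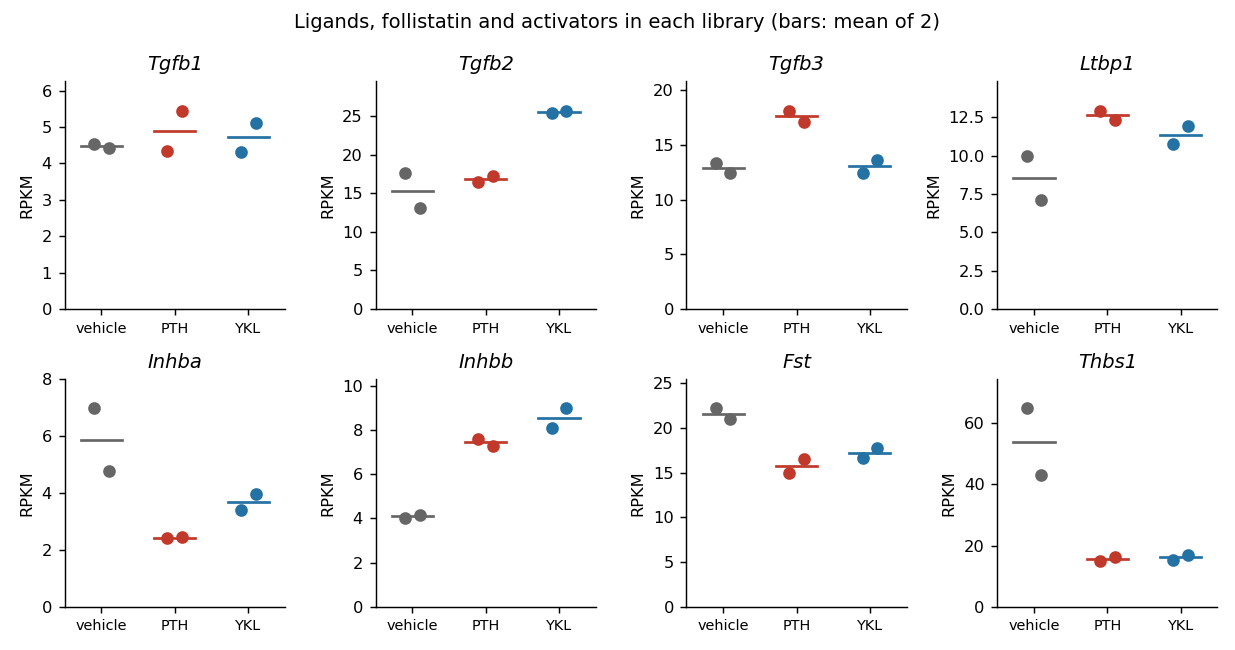
Expression of each gene in RPKM (linear y axis from 0, one scale per gene) in vehicle, PTH and YKL-05-093; each point is 1 library and each bar the mean of 2. Both treated pairs lie below both vehicle libraries for Thbs1, Inhba and Fst and above them for Inhbb and Ltbp1, while Tgfb1 overlaps in all conditions.

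Thbs1, whose product thrombospondin-1 binds the latent complex and frees TGF-β, fell with both agents. Its level was 64.8 and 43.0 RPKM in vehicle (6865 and 7289 reads), 14.998 and 16.3 RPKM with PTH (1961 and 1884 reads) and 15.3 and 17.0 RPKM with YKL-05-093 (1884 and 2129 reads). All 4 treated libraries lay far below the lower vehicle library, which was 2.64-fold above the highest PTH library and 2.54-fold above the highest YKL-05-093 library. In limma on log2(RPKM + 0.1), the change was -1.75 ± 0.23 (SE) with PTH, a 3.36-fold decrease (95% interval 2.33 to 4.86, adjusted p = 0.0114), and -1.705 ± 0.23 with YKL-05-093, a 3.26-fold decrease (2.25 to 4.73, adjusted p = 0.0318). Counted from the lowest log2 fold change, Thbs1 ranked 83 of 14261 genes tested with PTH and 105 of 14255 with YKL-05-093. Both comparisons use the same vehicle libraries. Without vehicle replicate 1 the log2 changes with PTH and YKL-05-093 were -1.45 and -1.41, and without vehicle replicate 2 they were -2.04 and -1.999. Leaving out a treated library, which leaves the spread to be estimated from the vehicle pair alone, lost the call with adjusted p of 0.345 and 0.310 (PTH) or 0.517 and 0.163 (YKL-05-093), while the log2 change stayed between -1.81 and -1.63. Set directly against each other, PTH and YKL-05-093 libraries overlapped for Thbs1, and the difference was -0.04 with a 95% interval from -0.20 to 0.11 (adjusted p = 0.798). Thbs2, which encodes the related thrombospondin-2, was at 79.2 and 51.5 RPKM in vehicle, 72.2 and 74.2 with PTH and 68.0 in both YKL-05-093 libraries, and passed no test (adjusted p = 0.80005, 0.956 and 0.419 in the order PTH, YKL-05-093 and direct comparison).

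With PTH the activin subunits moved in opposite directions. Inhba, which encodes the βA chain of activin A, was at 6.97 and 4.76 RPKM in vehicle (241 and 263 reads), 2.41 and 2.44 RPKM with PTH (103 and 92 reads) and 3.42 and 3.95 RPKM with YKL-05-093 (137 and 162 reads). No treated library reached a vehicle library, and the PTH pair lay below the YKL-05-093 pair. Its log2 change with PTH was -1.21 ± 0.22 (SE), a 2.32-fold decrease (95% interval 1.62 to 3.31, adjusted p = 0.0385). With YKL-05-093 the log2 difference was -0.63 ± 0.23, which did not pass (adjusted p = 0.452). Without vehicle replicate 1 that difference was -0.36, and without vehicle replicate 2 it was -0.90. Compared directly, Inhba was lower with PTH than with YKL-05-093 by 1.49-fold (log2 difference -0.58 ± 0.15, 95% interval -0.90 to -0.26, adjusted p = 0.0209). Without vehicle replicate 1 the PTH change was -0.94, and without replicate 2 it was -1.48. Without PTH replicate 1 or 2 the PTH call was lost, with log2 changes of -1.21 and -1.22. Leaving out any of the 4 treated libraries lost the pass of the direct difference, which ranged from -0.68 to -0.48.

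Inhbb, which encodes the βB chain of activin B, rose with both agents. It was at 4.00 and 4.18 RPKM in vehicle (298 and 497 reads), 7.61 and 7.27 RPKM with PTH (699 and 590 reads) and 8.11 and 8.98 RPKM with YKL-05-093 (700 and 792 reads). The lowest treated library was well above the higher vehicle library, by 1.74-fold for PTH and 1.94-fold for YKL-05-093, and here the vehicle libraries differed little. The log2 change was 0.85 ± 0.15 (SE) with PTH, or 1.80-fold (95% interval 1.40 to 2.31, adjusted p = 0.0391), and 1.04 ± 0.16 with YKL-05-093, or 2.06-fold (1.59 to 2.67, adjusted p = 0.0458). The direct comparison gave -0.20 with an interval from -0.37 to -0.02, which did not pass after adjustment (adjusted p = 0.167). Leaving out a treated library lost both passes, and without vehicle replicate 1 that of YKL-05-093 was lost as well, with log2 changes of 0.82 to 1.12 across these.

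The balance of the subunit genes was shifted toward Inhbb in the treated libraries. On the deposited lengths the ratio of Inhbb to Inhba RPKM was 0.574 and 0.878 in vehicle, 3.15 and 2.98 with PTH, and 2.37 and 2.27 with YKL-05-093. The summed RPKM of both subunits moved less, at 10.97 and 8.93 in vehicle, 10.02 and 9.72 with PTH and 11.5 and 12.9 with YKL-05-093. On these lengths the PTH libraries lay within the vehicle range of the sum and those with YKL-05-093 above it. These ratios are descriptions and carry no test. With the M21 lengths the ratio would be 1.86 and 2.84 in vehicle, 10.2 and 9.63 with PTH and 7.67 and 7.34 with YKL-05-093. Which subunit gene leads in vehicle thus turns with the length used, while the relative change of the ratio between conditions is the same. The place of the PTH libraries in the summed RPKM also turns with the length. With the M21 lengths both would lie above the vehicle range, as would those with YKL-05-093.

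Fst, the gene of the activin antagonist follistatin, was at 22.2 and 20.96 RPKM in vehicle, 14.99 and 16.6 with PTH and 16.6 and 17.7 with YKL-05-093. Every treated library lay below the vehicle pair, by 1.27-fold between the nearest PTH library and vehicle and 1.18-fold for YKL-05-093, yet neither difference passed after adjustment (log2 differences -0.45 ± 0.16, adjusted p = 0.274, and -0.33 ± 0.15, adjusted p = 0.647). Relative to the summed activin subunits, on the deposited lengths, Fst RPKM was 2.02 and 2.35 in vehicle, 1.496 and 1.704 with PTH and 1.44 and 1.37 with YKL-05-093. Without vehicle replicate 2 the PTH difference was -0.49. The α subunit gene Inha, whose product pairs with β chains to form inhibin, reached at most 19 reads and was not tested. Fstl3, a close relative of follistatin that also binds activin, passed no test (log2 difference -0.38, adjusted p = 0.457 with PTH, and 0.05, adjusted p = 0.9747 with YKL-05-093).

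**Figure D2:**
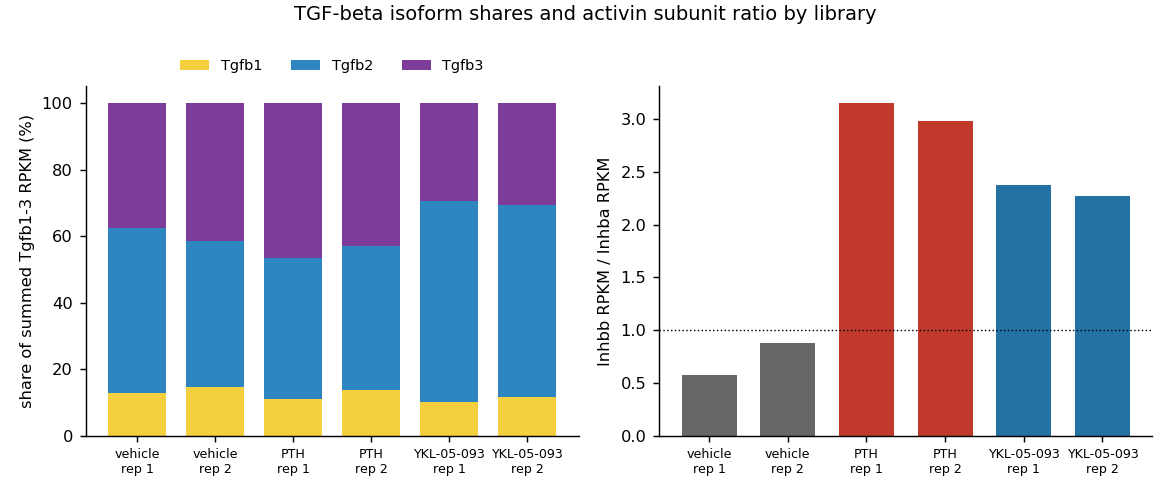
Left, the share (%) of the summed Tgfb1, Tgfb2 and Tgfb3 RPKM held by each gene in each library; right, the ratio of Inhbb to Inhba RPKM in each library, with a dotted line at a ratio of 1. Tgfb2 holds 57.8% and 60.2% in the YKL-05-093 libraries against 42.2% to 49.7% in the others, and the activin subunit ratio is 0.574 and 0.878 in vehicle and 2.27 to 3.15 in the 4 treated libraries. With the M21 length of Inhba all 6 ratios would lie above 1. The shares on the left also rest on the deposited lengths.

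Among the TGF-β ligand genes, Tgfb2 and Tgfb3 differed between the agents. Tgfb2 was at 17.7 and 13.0 RPKM in vehicle, 16.4 and 17.2 with PTH and 25.3 and 25.7 with YKL-05-093, so the PTH libraries fell within the vehicle range and those with YKL-05-093 lay above it. It was lower with PTH than with YKL-05-093 by 1.51-fold (log2 difference -0.60 ± 0.07, 95% interval -0.74 to -0.46, adjusted p = 1.1e-05). Against vehicle the difference with YKL-05-093 was 0.75 ± 0.19 and did not pass (adjusted p = 0.235). This difference was 0.96 without vehicle replicate 1 and 0.53 without replicate 2. With PTH it was 0.15 ± 0.19 (adjusted p = 0.818), and its sign turned without vehicle replicate 2 (-0.07). The direct difference held without either YKL-05-093 library (adjusted p = 0.0269 and 0.0352) and was lost without PTH replicate 1 or 2 (0.143 and 0.124).

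Tgfb3 had the other pattern. It was at 13.3 and 12.4 RPKM in vehicle, 18.1 and 17.1 with PTH and 12.5 and 13.6 with YKL-05-093, with both PTH libraries above all others and the YKL-05-093 pair overlapping vehicle. The level with PTH was 1.35-fold that with YKL-05-093 (log2 difference 0.43 ± 0.08, 95% interval 0.27 to 0.59, adjusted p = 0.000986). Against vehicle, PTH gave 0.45 ± 0.16 (adjusted p = 0.270) and YKL-05-093 gave 0.02 ± 0.16 (adjusted p = 0.988), so neither passed. The PTH difference from vehicle was 0.50 without vehicle replicate 1 and 0.40 without replicate 2. The direct difference no longer passed when any 1 treated library was left out, with values of 0.37 to 0.50. When all 6 libraries shared 1 fit, and with it the wider vehicle spread, none of the direct differences of Tgfb2, Tgfb3 and Inhba passed (adjusted p = 0.201, 0.253 and 0.404).

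Tgfb1, the isoform most abundant in bone matrix, was at 4.52 and 4.41 RPKM in vehicle, 4.34 and 5.45 with PTH and 4.31 and 5.12 with YKL-05-093. The groups overlapped in every comparison, and the 95% intervals of the log2 difference ran from -0.30 to 0.54 for PTH (adjusted p = 0.840) and from -0.34 to 0.48 for YKL-05-093 (adjusted p = 0.948), which leaves room for changes of up to 1.45-fold and 1.39-fold. The 3 ligand genes together were at 35.5 and 29.8 RPKM in vehicle, 38.8 and 39.8 with PTH and 42.1 and 44.4 with YKL-05-093. Within that sum Tgfb2 made up 49.7% and 43.7% in vehicle, 42.2% and 43.2% with PTH and 60.2% and 57.8% with YKL-05-093, and Tgfb3 made up 37.5% and 41.5%, 46.6% and 43.1%, and 29.6% and 30.7% in the same order. These sums and shares rest on the deposited lengths. With the M21 lengths the vehicle means would be 2.26 RPKM for Tgfb1, 12.5 for Tgfb2 and 12.8 for Tgfb3. Tgfb2 would then not have the highest mean in vehicle, but still would with YKL-05-093 (20.8 against 13.0 for Tgfb3).

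Ltbp1, whose product anchors the latent complex to matrix fibrils, was at 9.96 and 7.11 RPKM in vehicle, 12.9 and 12.3 with PTH and 10.7 and 11.9 with YKL-05-093. All treated libraries were above both vehicle libraries, but the nearest YKL-05-093 library by only 1.08-fold. Neither difference passed: 0.58 ± 0.20 with PTH (adjusted p = 0.272) and 0.42 ± 0.20 with YKL-05-093 (adjusted p = 0.659). With each vehicle library left out in turn, the PTH difference was 0.82 without replicate 1 and 0.34 without replicate 2. For YKL-05-093 the values were 0.66 and 0.18. The ratio of Thbs1 to Ltbp1 RPKM was 6.51 and 6.05 in vehicle, 1.16 and 1.33 with PTH and 1.43 in both YKL-05-093 libraries, with no test on the ratio.

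**Figure D3:**
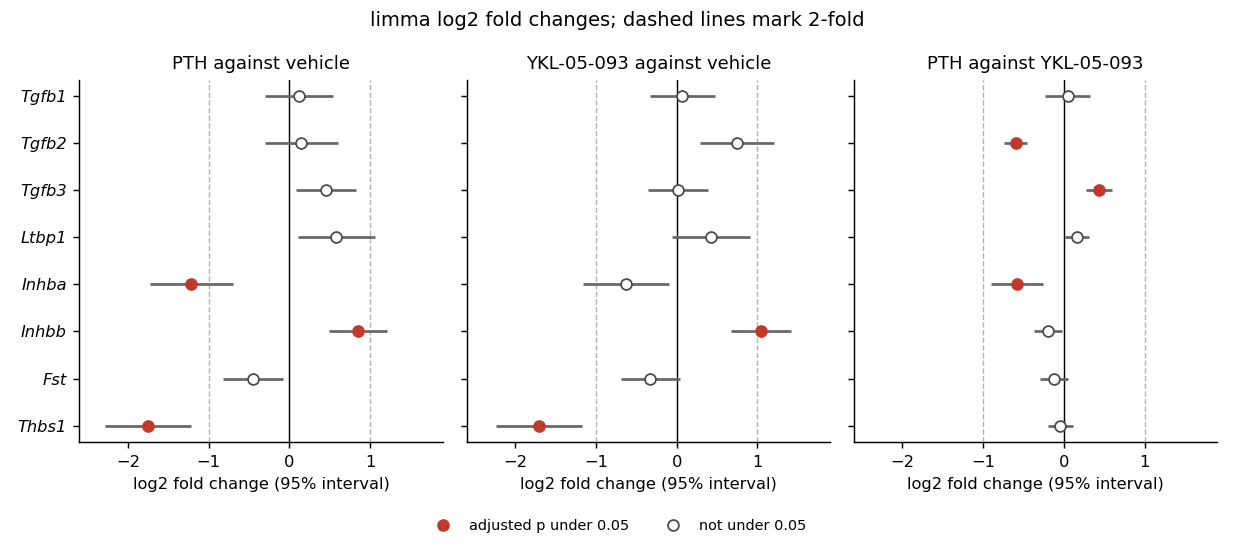
log2 fold change of each gene in the 3 comparisons, from limma on log2(RPKM + 0.1) with 95% intervals; filled points have an adjusted p under 0.05 and dashed lines mark 2-fold. Thbs1 lies at -1.75 and -1.70 and Inhbb at 0.85 and 1.04 against vehicle, whereas Tgfb2, Tgfb3 and Inhba separate PTH from YKL-05-093.

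Counted together, 3 of the 8 genes passed with PTH (Thbs1 and Inhba lower, Inhbb higher), of which Thbs1 and Inhba also exceeded 2-fold and are counted as called, against 1.91% of the 14261 genes tested (2.19% passed on the adjusted p alone). With YKL-05-093, 2 passed and both were called, Thbs1 lower and Inhbb higher, against 0.666% of 14255 genes. Between PTH and YKL-05-093, 3 passed and none exceeded 2-fold. There, 9.97% of the 14255 genes tested passed on the adjusted p alone and 1.21% also exceeded 2-fold. Groups did not overlap for 6 of the 8 in each comparison, where 43.1%, 37.8% and 50% of all genes tested did not. The median absolute log2 difference of the 8 was 0.51, 0.53 and 0.18 in the 3 comparisons, against 0.20, 0.18 and 0.12 over all genes tested. These passes depend on the settings. With 1 prior variance for all genes none of the 8 differences that passed still did (adjusted p = 0.0688 to 0.184), and with the prior variance on the mean value only Thbs1 with PTH and Tgfb2 and Tgfb3 between the agents passed (0.0376, 0.0157 and 0.0497). With no filter on low values, Tgfb2 between the agents passed (0.0365) and the others did not (0.103 to 0.232). Thbs1 and Inhbb with YKL-05-093 did not pass with a pseudocount of 1 RPKM (0.0521 and 0.0599) or a filter of 0.1 RPKM (0.0517 and 0.0704). That filter also lost Inhba and Inhbb with PTH (0.0582 and 0.0555). A pseudocount of 0.01 RPKM lost Inhbb with YKL-05-093 (0.0538). The remaining differences still passed in these 3 settings. With 2 libraries a side an exact two-sided permutation test of 1 gene cannot go below 0.333, so none was run. In RNA of a whole culture, fewer cells that express a gene and less of its RNA per cell cannot be told apart.

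**Figure D4:**
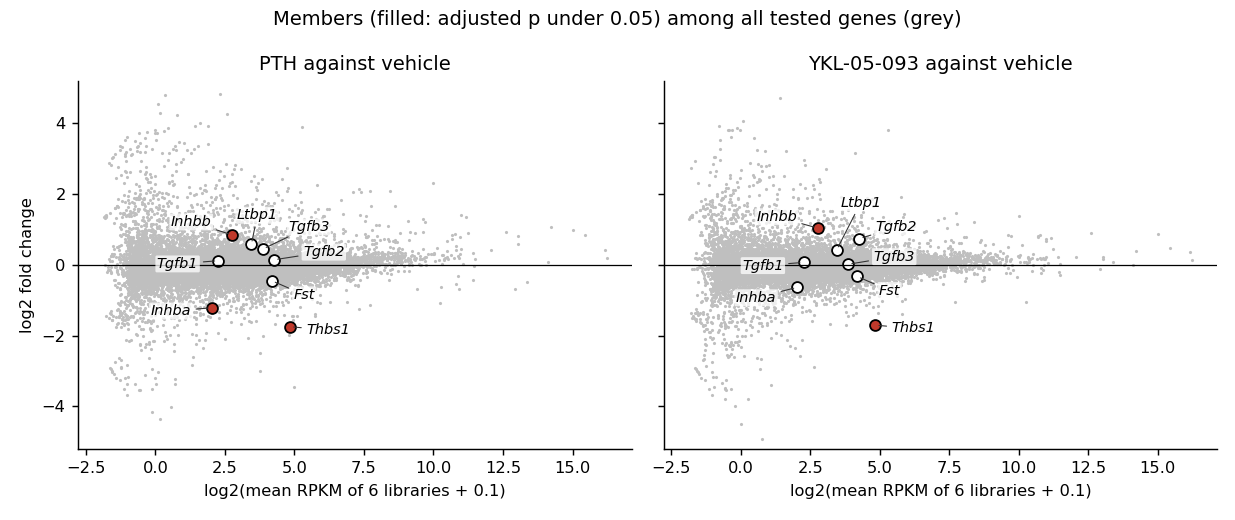
log2 fold change against mean level, log2(mean RPKM + 0.1), of all genes tested (grey) with the 8 genes marked, filled where the adjusted p was under 0.05. Thbs1 lies below most of the cloud at its level in both panels, and Inhbb lies toward its upper edge.

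No receptor gene for these ligands passed the test against vehicle. Of 9 receptor and co-receptor genes, 7 were tested (median log2 difference 0.01 and -0.23, against -0.03 and -0.04 over all genes). The most abundant were Tgfbr2, the ligand-binding type II receptor (45.1 and 35.7 RPKM in vehicle, 39.0 and 40.9 with PTH, 46.8 and 45.5 with YKL-05-093), and the co-receptor gene Tgfbr3 (20.5 and 12.7, 19.8 and 19.0, and 12.4 and 13.3 RPKM). In the direct comparison 2 of the 7 were higher with PTH, where 9.97% of all genes tested passed. The same share stands beside the direct counts of the lists below. Tgfbr3 was higher by 0.59 ± 0.07 on the log2 scale (adjusted p = 1.55e-05). Tgfbr1, the type I receptor kinase, named after its values were seen, was higher by 0.77 ± 0.08 (adjusted p = 7.01e-06). The activin receptor genes Acvr1b, Acvr2a and Acvr2b passed in no comparison.

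Of 16 other genes of the latent complex, its matrix store and its activation, 14 were tested and none passed against vehicle (median log2 difference -0.03 with PTH and -0.07 with YKL-05-093). The most abundant, the integrin β1 gene Itgb1 at a mean of 241 RPKM and the protease gene Mmp2 at 197 RPKM, had log2 differences of -0.15 and 0.78 with PTH (adjusted p = 0.833 and 0.106). Between the agents 3 were higher with PTH and none lower. Lrrc32, which encodes the cell-surface anchor GARP for latent TGF-β, was at 1.93 and 1.53 RPKM with PTH and 0.607 and 0.998 with YKL-05-093, with vehicle in between at 1.14 and 1.03, a log2 difference of 1.04 ± 0.21 (adjusted p = 0.00335). The other two, named after their values were seen, were the integrin β3 gene Itgb3 (0.64 ± 0.11, adjusted p = 0.000903) and the propeptide convertase gene Furin (0.28 ± 0.07, adjusted p = 0.0185).

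Other activin-type ligands and activin or TGF-β binders counted 12, with 7 tested and none past the test against vehicle (median log2 difference 0.07 and 0.11). Fstl1, a follistatin-like matrix protein, and the proteoglycan gene Bgn were the most abundant, at means of 211 and 145 RPKM, and passed nowhere. Mstn was listed at 0, and Inhbc, Inhbe and Nodal reached at most 2 reads. In the direct comparison only Fmod, a collagen-binding proteoglycan gene named after its values were seen, passed, higher with PTH by 0.42 ± 0.07 (adjusted p = 0.000846).

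Among 12 SMADs and nuclear regulators, all tested, 1 passed with PTH and none with YKL-05-093 (median log2 difference -0.14 and -0.10). That gene was Pmepa1, named after its values were seen, which encodes a TGF-β-induced feedback inhibitor. It was at 4.401 and 3.88 RPKM in vehicle, 7.58 and 8.09 with PTH and 5.10 and 5.54 with YKL-05-093, a log2 change of 0.91 ± 0.16 with PTH (adjusted p = 0.0363). Smurf2 and Ski, the most abundant of the list at means of 36.5 and 26.0 RPKM, passed nowhere. Between the agents 3 were higher with PTH and 1 lower, named after their values were seen: the inhibitory SMAD gene Smad7 (0.91 ± 0.16, adjusted p = 0.00139), the repressor gene Skil (0.92 ± 0.11, adjusted p = 2.42e-05) and Pmepa1 (0.55 ± 0.08, adjusted p = 0.000248) were higher, and Smad3, the effector SMAD gene, was lower (-0.69 ± 0.07, adjusted p = 5.11e-06). Against vehicle, Smad7 with YKL-05-093 had a log2 difference of -1.33 ± 0.26 that did not pass (adjusted p = 0.0993). With PTH it was -0.42 (adjusted p = 0.492). For Skil the differences from vehicle were -0.08 with PTH (adjusted p = 0.948) and -0.995 with YKL-05-093 (0.324). Those of Smad3 were -0.20 (0.736) and 0.49 (0.504). Smad7 and Skil were thus higher with PTH than with YKL-05-093, but their means with PTH were not above vehicle.

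Of the genes widely used as readouts of TGF-β signalling, 11 are described, and none of these passed with PTH or YKL-05-093 (median log2 difference -0.11 and 0.05). Col1a1 and Col1a2, the type I collagen genes and the most abundant of them at means of 362 and 294 RPKM, passed in no comparison. In the direct comparison 2 were higher with PTH, the AP-1 factor gene Junb (0.61 ± 0.08, adjusted p = 4.57e-05) and the matricellular protein gene Ctgf (0.78 ± 0.22, adjusted p = 0.0370). There 3 were lower, the matrix protein gene Tgfbi (-0.44 ± 0.11, adjusted p = 0.0188) and the actin cytoskeleton genes Acta2 (-0.41 ± 0.07, adjusted p = 0.000675) and Tagln (-0.36 ± 0.07, adjusted p = 0.00188). Ctgf was below vehicle with both agents without passing, at 3.06 and 3.33 RPKM in vehicle, 1.604 and 2.01 with PTH and 0.761 and 1.32 with YKL-05-093 (log2 differences -0.79, adjusted p = 0.102, and -1.57, adjusted p = 0.0689). Cyr61, of the same gene family, also lay below vehicle with both (log2 differences -0.86, adjusted p = 0.0681, and -0.96, adjusted p = 0.0905). These 6 were named after their values were seen.

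**Figure D5:**
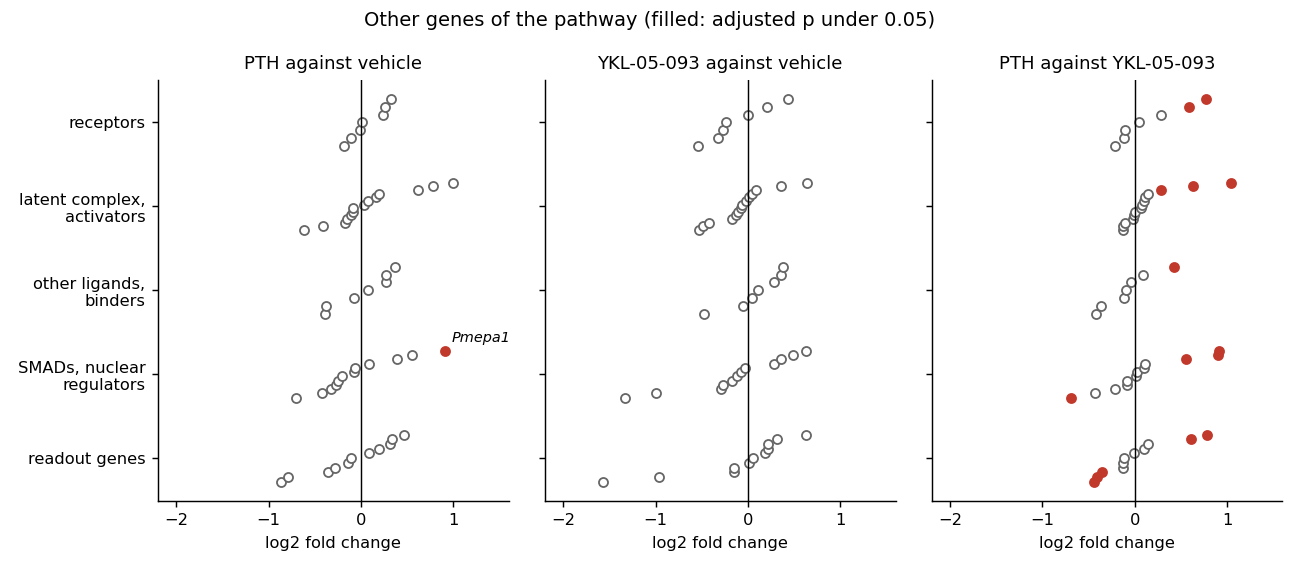
log2 fold change of the tested genes described from the 5 pathway lists in the 3 comparisons; filled points have an adjusted p under 0.05, and genes are spread vertically within a list only to keep points apart. Of the genes shown, Pmepa1 (0.91) passes with PTH against vehicle and none passes with YKL-05-093, while 15 pass in the direct comparison. There 9.97% of all genes tested pass, and the fit rests on the narrow spread of the treated pairs.

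For the members that passed a test, the genes with the most similar course over the 6 libraries were found by Pearson's r of log2(RPKM + 0.1) among 11884 genes with at least 50 reads on average. The points are 6 libraries in 3 treated or untreated pairs, so r is given as a description only. Inhbb went most closely with Nfkbiz (r = 0.999), Nr4a2 (0.998) and Hsd3b7 (0.997), of which the nuclear receptor gene Nr4a2 was at a mean of 0.936 RPKM in vehicle, 5.31 with PTH and 7.94 with YKL-05-093. The nearest genes to Inhba were Wnt5a (rounded r = 1.00), Thbd (0.997) and Sept9 (0.995), and those to Thbs1 were G3bp1 (0.998), Slc20a1 (0.994) and Otud6b (0.994). Wnt5a, a Wnt ligand gene, followed the same steps as Inhba at means of 4.81, 2.41 and 3.35 RPKM. Tgfb2 was nearest to Lrrn4cl (0.994), Per1 (0.990) and Grb2 (0.981), with the clock gene Per1 at 2.99, 3.44 and 5.74 RPKM, and Tgfb3 was nearest to Sfrp1 (0.996), Prmt2 (0.994) and Gbp2 (0.992), with the Wnt antagonist gene Sfrp1 at 0.701, 1.61 and 0.691 RPKM.

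On GRCm38 (GENCODE M21) the genes lie at chr7:25687002-25705077 (Tgfb1, plus strand), chr1:186622792-186705989 (Tgfb2, minus), chr12:86056745-86079041 (Tgfb3, minus), chr13:16011851-16031621 (Inhba, plus), chr1:119415465-119422248 (Inhbb, minus), chr13:114452290-114458951 (Fst, minus), chr17:75005568-75392512 (Ltbp1, plus) and chr2:118111876-118127133 (Thbs1, plus). Exons of Tgfb2, Tgfb3, Fst and Thbs1 overlap exons of noncoding genes on the opposite strand. The library kit kept strand, but whether the counting used it is not given in the sources used here, and without it reads from those stretches cannot be assigned to one strand. No exon overlap was found for Tgfb1, Inhba, Inhbb and Ltbp1.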

How the data were processed

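RNA of the 6 libraries was depleted of ribosomal RNA, made into strand-keeping libraries and sequenced as paired reads. The authors mapped reads to mm10 with STAR, counted them per gene with HTSeq 0.6.0 (Ensembl release 75), compared conditions with edgeR and deposited linear RPKM values per gene and library, which were used here; the submitters' processing notes also name CASAVA 1.7. Whole reads were recovered from the steps of the RPKM values (100% of 26214 genes above 0), which gave the depth and each gene's length.

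RPKM values were tested as log2(RPKM + 0.1) with limma 3.58.1 (R 4.3.3), in a separate fit of the 4 libraries of each comparison, with the prior variance following the mean log2 number of recovered reads. Fold changes are on this scale. Genes needed at least 0.5 RPKM in at least 2 of 6 libraries (14264 genes), and those at 0 in all 4 libraries of a comparison dropped out of it. P-values were adjusted over all genes tested by the Benjamini-Hochberg method. A gene passed at an adjusted p under 0.05 and was called when it also exceeded 2-fold. The script was tested on simulated data. Other pseudocounts, filters, variance models, scalings, a replicate block and each library left out were tried as alternatives.

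All 8 members were described. From each pathway list, genes called in any comparison and the 2 with the highest mean RPKM were named. The members, lists and settings were chosen with earlier results of these data known. RefSeq protein sequences were not used here. One gene of a pathway list is not reported here.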

Additional observations from a re-analysis of the deposited data

How the results depend on the processing

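Each of the 24 member differences was recomputed under 15 alternatives, and 292 of these values kept direction and side of the threshold on the adjusted p, 51 lost the pass, 8 gained one and 9 changed sign. All 9 sign changes came with 1 library left out. The gained passes all came with a vehicle library left out, where the spread was taken from the narrower treated pair. With 1 library left out in turn, Tgfb1 ranged over -0.042 to 0.28 with PTH, -0.051 to 0.19 with YKL-05-093 and -0.11 to 0.21 between the agents. The range was -0.072 to 0.36 for Tgfb2 with PTH, -0.045 to 0.082 for Tgfb3 with YKL-05-093 and -0.12 to 0.028 for Thbs1 between the agents. Each of the 8 member differences that passed kept its direction in all 15, and they stayed under an adjusted p of 0.05 in 11 (Thbs1 with PTH), 8 (Thbs1 with YKL-05-093), 9 (Inhba with PTH), 9 and 6 (Inhbb with PTH and YKL-05-093), and 11, 8 and 7 (Tgfb2, Tgfb3 and Inhba between the agents).

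Over all genes, the number called (272 with PTH, 95 with YKL-05-093 and 172 between the agents) moved by more than 1.5 times in these settings. With no filter on low values it was 0 with PTH and 0 with YKL-05-093, where 2343 and 1734 genes had an unadjusted p under 0.05 in limma. Voom on the recovered reads, run with the filter of 0.5 RPKM, called 287 and 96, within 1.5 times the main counts. With the prior variance on the mean value the number called was 160 and 6. A single prior variance for all genes gave 130, 29 and 51. A pseudocount of 1 RPKM gave 55 with YKL-05-093 and 98 between the agents, and a filter of 0.1 RPKM gave 57 with YKL-05-093. In 1 fit of all 6 libraries 173 were called with YKL-05-093 and 102 between the agents, and without a limit on the fold 1421 between the agents. Leaving out 1 library gave 14 to 657 with PTH, 11 to 301 with YKL-05-093 and 0 to 155 between the agents. The 0 came without either PTH library, with 2075 and 1970 genes at an unadjusted p under 0.05. Where a condition kept 1 library, that library was assumed to vary like the other condition. The cause of these shifts was not tested beyond this. The merged exon lengths of GENCODE M21, an alternative chosen after seeing the data, moved the mean ratio of Inhbb to Inhba RPKM from 0.726 to 2.35 in vehicle, from 3.06 to 9.91 with PTH and from 2.32 to 7.51 with YKL-05-093. Depth limits Inhba most among the members, at 92 to 263 reads a library.

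Replicate numbers did not pair the libraries: deviations of same-numbered libraries correlated at -0.034, -0.054 and -0.049 over 14264 genes. With the replicate block 440 genes were called with PTH, 215 with YKL-05-093 and 196 between the agents, and no member difference changed its side of the threshold.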
